A study of Mus musculus with 4 samples.

Results

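Sult1a1 and 8 other detoxifying genes were followed in mouse blood stem and progenitor cells with and without the Ncstn gene. The 9 genes are Sult1a1, Aldh1a1, Aldh2, Gstm1, Gstm5, Mgst1, Mgst2, Nqo1 and Abcg2. Sult1a1 was selected on its log2 intensity, which was higher in Ncstn KO than in WT cells. The others were selected as detoxifying genes known from stem cells, at a time when earlier results of these data were known. All 9 were on the array, with 17 of the 34945 probe sets that name a single gene, and they are 9 of 18193 genes in all. A probe set is a group of short probes for one transcript, and where a gene had several, the one with the highest mean over the arrays gave its main value. The values of Sult1a1 between genotypes are therefore a description and carry no test.

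RNA came from LSK cells, the bone marrow fraction without lineage markers that carries cKit and Sca1 and holds the blood stem cells and multipotent progenitors. The WT group was Ncstn flox/flox without cre (2 mice), and the Ncstn KO group was Ncstn flox/flox Mx1-cre+ (2 mice), a transgene whose interferon-responsive promoter drives cre in blood cells and in other tissues. Mice of both groups received polyIC, an inducer of interferon, in 3 doses of 20 µg per g, begun at 14 days of age, and were analysed 4 weeks later, when 6 weeks old. Replicate 1 of WT and replicate 2 of Ncstn KO were male, and the other mice were female. Loss of Ncstn, which encodes a subunit of the protease that releases active Notch, and the presence of the transgene cannot be told apart in this design, and fewer cells of a type cannot be told apart from less RNA per cell.

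Detoxification runs in steps. Aldehyde dehydrogenases such as Aldh1a1 and Aldh2 oxidise reactive aldehydes to acids, and Nqo1 reduces quinones. Sulfotransferases such as Sult1a1 add sulfate from the donor PAPS to phenols and steroids, and glutathione transferases (Gstm1, Gstm5, Mgst1, Mgst2) add glutathione to reactive compounds. Pumps such as Abcg2 then carry products out of the cell. In blood, aldehyde dehydrogenase activity and dye efflux through Abcg2 are used to enrich stem cells, and Aldh2 is known to protect them from acetaldehyde.

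As a check of the labels, the log2 intensity of Ncstn was 9.05 and 8.98 in WT and 7.58 and 7.91 in Ncstn KO (replicates 1 and 2, as in every list of values below). The Ncstn change was -1.27 on its main probe set and -0.80 as the mean of its probe sets. The median intensity of an array lay between 71.6 and 79.2. All 11 measured stem and progenitor markers, Kit, Cd34 and Flt3 among them, were brighter than the median gene, 8.04 on the log2 scale, while Ly6a, the gene of Sca1, was not analysed here. The hybridization controls, bacterial and phage RNA added at a fixed amount, were brighter in Ncstn KO by 0.20 (log2). With these controls as the scale, the median change of all genes was -0.17 in place of 0.025. The log2 difference between the 3′ and 5′ ends of the actin control, a sign of RNA quality and amplification, was 0.79 to 0.89 in WT and 0.94 to 1.02 in Ncstn KO. For the Gapdh control the ranges overlapped, at 0.65 to 0.71 and 0.69 to 0.77. The part of these differences in the results below was not tested, beyond the scaling given beside them.

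The upstream sequences of the members show what the genes carry before any value is read. RefSeq's promoter table (build GRCm38.p6) held 13 start sites for 8 of the 9 members, and the 250 bases before each start were searched on both strands. One motif was TGACNNNGC, the core of the antioxidant response element through which Nrf2 acts, and the other was GCGTG, the core of the xenobiotic response element bound by Ahr. The 3 members whose signal was at least 2-fold higher in Ncstn KO are printed first, and then the 2 with the antioxidant core. Letters are lower case, with capitals on any match. Aldh1a1 and Mgst1 have a second start each that is not printed.

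Sult1a1, chr7:126676419-126676668, minus strand: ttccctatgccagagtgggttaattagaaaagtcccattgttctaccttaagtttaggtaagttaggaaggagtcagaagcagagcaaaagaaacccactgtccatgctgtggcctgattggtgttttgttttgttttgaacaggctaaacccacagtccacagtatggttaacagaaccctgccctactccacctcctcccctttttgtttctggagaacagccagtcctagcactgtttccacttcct
Aldh1a1, chr19:20601718-20601967, plus strand: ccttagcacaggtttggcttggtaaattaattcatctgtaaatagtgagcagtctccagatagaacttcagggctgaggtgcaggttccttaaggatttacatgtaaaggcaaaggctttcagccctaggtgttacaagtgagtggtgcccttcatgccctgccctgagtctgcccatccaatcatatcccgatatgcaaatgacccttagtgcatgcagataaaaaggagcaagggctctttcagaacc
Mgst2, chr3:51660929-51661178, plus strand: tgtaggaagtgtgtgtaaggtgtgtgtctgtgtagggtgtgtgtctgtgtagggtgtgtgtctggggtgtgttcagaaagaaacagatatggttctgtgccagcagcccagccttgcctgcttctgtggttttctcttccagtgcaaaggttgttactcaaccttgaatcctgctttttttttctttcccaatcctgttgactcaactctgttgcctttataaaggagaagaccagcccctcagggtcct
Gstm5, chr3:107895604-107895853, plus strand: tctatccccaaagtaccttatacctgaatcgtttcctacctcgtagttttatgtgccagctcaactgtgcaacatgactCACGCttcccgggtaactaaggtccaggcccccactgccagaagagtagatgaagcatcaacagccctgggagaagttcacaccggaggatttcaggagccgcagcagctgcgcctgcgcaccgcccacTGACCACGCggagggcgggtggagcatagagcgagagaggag
Mgst1, chr6:138140277-138140526, plus strand: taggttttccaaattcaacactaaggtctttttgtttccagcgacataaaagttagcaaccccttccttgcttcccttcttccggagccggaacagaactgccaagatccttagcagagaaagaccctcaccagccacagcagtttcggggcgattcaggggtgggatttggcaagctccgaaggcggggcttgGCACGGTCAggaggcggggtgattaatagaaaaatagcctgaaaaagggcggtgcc

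Neither core was present in the windows of Sult1a1, Aldh1a1, Mgst2, Nqo1 or Abcg2. TGACNNNGC was found in 2 of the 13 windows, against 10.2% of all 32851 windows in the table. In Gstm5 it lay 42 to 34 bases before the start on the plus strand, and in Mgst1 56 to 48 bases before the start on the minus strand. GCGTG was found in 3 of 13 windows, against 28.2% of all. These were Gstm5, with 2 copies on the minus strand of which one overlaps its antioxidant core, and both windows of Gstm1, which overlap each other and share a single copy. The GC content was 45.6% for Sult1a1, 46.4% for the printed Aldh1a1 window and 47.6% for Mgst2, below the median of all windows, 52.4%. The windows of Mgst1 and part of those of Abcg2, genes not raised 2-fold, also lay below that median. Gstm5 had 56.8%, and the windows of Gstm1, Nqo1 and the rest of Abcg2 lay above the median as well. Low GC content was therefore not particular to Sult1a1, Aldh1a1 and Mgst2. A match shows letters only, and the absence of one in 250 bases says nothing of sites farther away.

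Sult1a1 had the widest gap between the genotypes among the members. Its log2 intensity was 6.71 and 6.97 in WT and 9.20 and 8.59 in Ncstn KO, or 105, 125, 589 and 385 on the linear scale. Both Ncstn KO arrays were above both WT arrays, and the female Ncstn KO mouse was the highest of the 4. The means were 6.84 ± 0.18 (SD, n = 2) and 8.90 ± 0.43 (SD, n = 2), a difference of 2.05 or 4.15-fold, which ranked 18 from the highest of 18193 genes. The difference was 2.23 between the 2 females and 1.87 between the 2 males, and 1.75 to 2.36 with any single array left out. These values chose the gene. It is read by 1 probe set, and its mean lay below the median of all genes.

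The other sulfation genes gave smaller differences, the largest among the sulfotransferases being 0.52 for the dim Sult5a1. Of 17 measured genes of sulfation, 12 lay above and 5 below WT, 0 passed over all genes, and the median change was 0.11 against 0.025 over all genes. With the hybridization controls as the scale, 5 of the 17 lay above, against 21.4% of all genes, where the main scale had 55.8%. Papss2, which makes the sulfate donor PAPS, had values of 6.23 and 6.20 in WT and 7.44 and 7.04 in Ncstn KO, a 2.03-fold difference (log2 1.02, SE 0.26, limma adjusted p = 0.471). Its groups did not overlap, but its other 3 probe sets gave 0.55, 0.29 and 0.018, and the mean of all 4 gave 0.47. Papss1, the other PAPS synthase, had a change of -0.36 (SE 0.29) with overlapping arrays. Slc26a2, a sulfate transporter, had 0.20 (SE 0.15). The remaining sulfotransferases included Sult1b1 (-0.11), Sult1d1 (0.034), Sult1e1 (-0.047) and Sult2b1 (0.30), each with overlapping groups and a mean below the median of all genes. Sult6b1 had separate arrays below WT, at -0.31, and Sult1c1 and Tpst2 above, each at 0.13. Sult6b1 and Sult1c1 also had means below the median of all genes, Sult1c1 far below it at values of 2.65 to 2.87. Over the 17 genes, separate arrays lay above WT for 5 (29.4%) and below for 1 (5.88%). The shares of all genes were 21.3% and 12.8%.

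**Figure D1:**
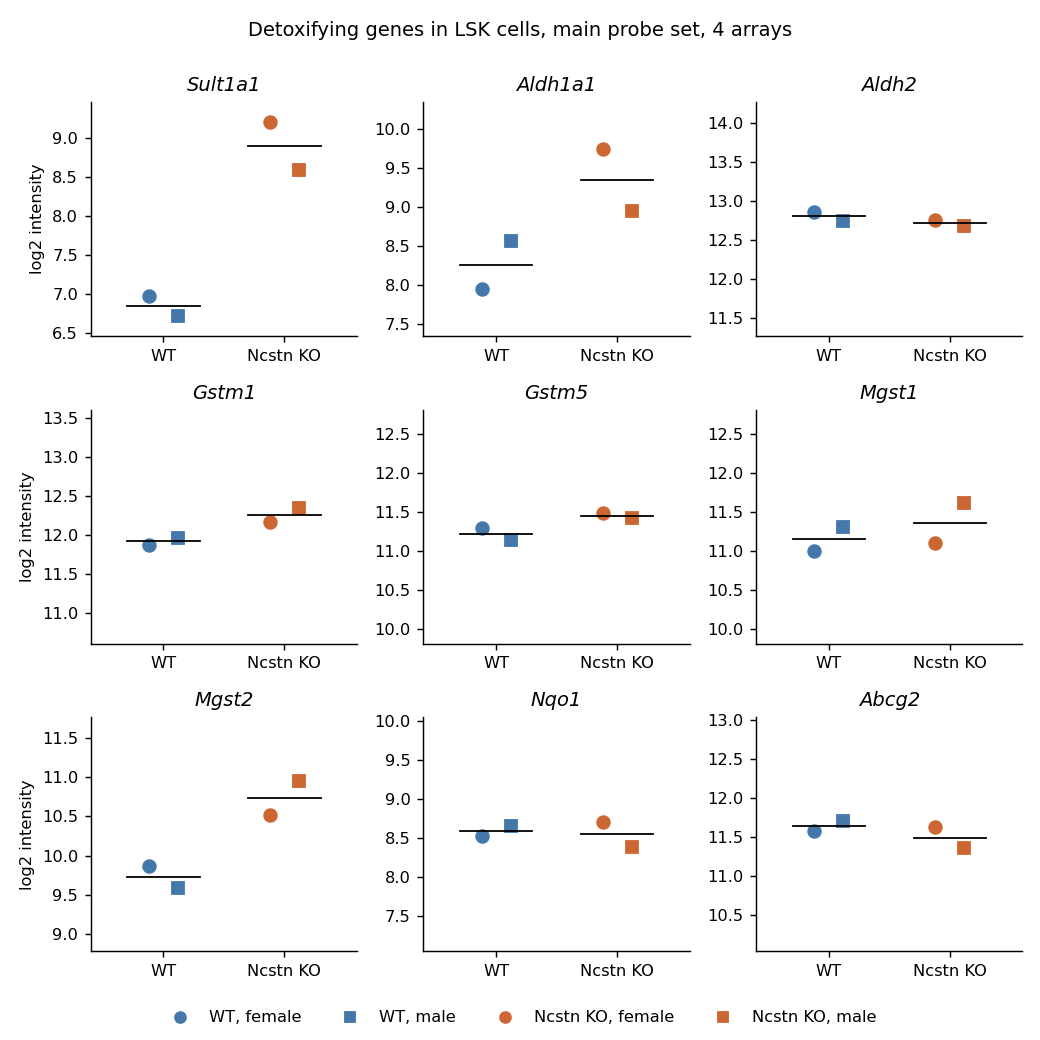
Log2 intensity of the main probe set of each of the 9 members on the 4 arrays (y axis, each panel spanning 3 log2 units), for WT and Ncstn KO (x axis). Circles are females, squares males and lines the group means of 2 mice; Sult1a1, Aldh1a1, Mgst2, Gstm1 and Gstm5 have both Ncstn KO points above both WT points, and the other 4 overlap.

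Across all 9 members, 6 lay above and 3 below WT, where 55.8% of all genes lay above. In the limma fit 0 of the 9 passed over all genes. There 0 of 18193 genes (0%) had an adjusted p below the threshold of 0.05. At an unadjusted p under 0.05 the fit held 1237 genes, and among the 8 members other than Sult1a1 it held 3, namely Aldh1a1, Mgst2 and Gstm1. Both Ncstn KO arrays were above both WT arrays for 5 members, against 21.3% of all genes, and below them for 0 members, against 12.8%. Without Sult1a1 these counts were 4 of 8 above and 4 of 8 overlapping. These 8 were also named with earlier results of these data known, so the counts are a description. A difference of at least 2-fold with separate arrays was seen for 3 members, against 1.19% of all genes, and Sult1a1, one of the 3, was chosen for that difference. With the hybridization controls as the scale, 3 members lay above with separate arrays, against 6.73% of all genes, and 3 below, against 44.6%. The 3 above were Sult1a1, Aldh1a1 and Mgst2, and the 3 below were Aldh2, Nqo1 and Abcg2. Each change is the Ncstn KO mean minus the WT mean (log2, n = 2 per group), followed by its standard error (SE) from the fit.

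Among the aldehyde dehydrogenases, Aldh1a1 and Aldh2 differed in their values. Aldh1a1, a cytosolic enzyme that also makes retinoic acid, had values of 8.56 and 7.95 in WT and 9.74 and 8.94 in Ncstn KO. The groups did not overlap, but the male arrays of the 2 genotypes were close. The change was 1.09 (SE 0.34, 95% interval 0.26 to 1.92), or 2.13-fold, and did not pass (limma adjusted p = 0.595). It was 1.80 in the females and 0.39 in the males, and 0.69 without Ncstn KO replicate 1.

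Aldh2, the mitochondrial enzyme for acetaldehyde, had values of 12.75 and 12.86 in WT and 12.76 and 12.68 in Ncstn KO. On the main scale the groups overlapped and were close together. The change was -0.083 (SE 0.075, limma adjusted p = 0.958), and the interval of -0.27 to 0.0995 leaves out a 2-fold change in either direction. Its other 4 probe sets gave changes between -0.10 and 0.021, each with overlapping groups. Of 23 measured aldehyde and alcohol dehydrogenases, 10 lay above and 13 below WT, with a median of -0.040 and 0 past the test. Of all genes, 55.8% lay above WT. With the hybridization controls as the scale 5 of the 23 lay above, against 21.4% of all genes. With 1 array left out, 6 (without Ncstn KO replicate 1) to 14 (without Ncstn KO replicate 2) of the 23 lay above. Aldh1l1, a folate-dependent dehydrogenase, had values of 8.83 and 9.06 in WT and 9.83 and 9.80 in Ncstn KO, a change of 0.87 (SE 0.17, limma adjusted p = 0.336) with separate groups. Its second, dim probe set gave 0.57. Adh4, an alcohol dehydrogenase, had 0.33 (SE 0.13) at values of 2.55 to 2.96, far below the median of all genes.

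The list of glutathione transferases held 25 measured genes, among them Ptges, Ltc4s and Alox5ap, relatives of the Mgst proteins that serve prostaglandin and leukotriene synthesis. Of the 25, 18 lay above and 7 below WT, 72.0% against 55.8% of all genes, with a median of 0.23 against 0.025. Both Ncstn KO arrays were above both WT arrays for 11 of the 25, against 21.3% of all genes, and none passed over all genes. Without those 3 relatives, 15 of 22 lay above WT, 8 with separate arrays, with a median of 0.18. Scaling to the hybridization controls left 14 of the 25 above, against 21.4% of all genes, with a median of 0.031 against -0.17 over all genes. Of the 22, 11 lay above on that scale, with a median of -0.016. The list includes the 4 glutathione transferases among the members.

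Mgst2, a membrane-bound transferase that can also make leukotriene C4, had values of 9.59 and 9.87 in WT and 10.52 and 10.96 in Ncstn KO. Both Ncstn KO arrays were above both WT arrays, and here the male was the higher one. The change was 1.01 (SE 0.20, 95% interval 0.52 to 1.49), or 2.01-fold, and did not pass (limma adjusted p = 0.316). It was 0.65 in the females and 1.37 in the males, and 0.79 to 1.23 with 1 array left out. Mgst1, a membrane-bound transferase and peroxidase, had 11.31 and 11.01 in WT and 11.11 and 11.62 in Ncstn KO. Its groups overlapped, with a change of 0.21 (SE 0.20, 95% interval -0.27 to 0.69, limma adjusted p = 0.962) that was -0.049 without Ncstn KO replicate 2. A second Mgst1 probe set, dim at 3.21 to 3.84, gave 0.39.

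Gstm1 and Gstm5, cytosolic transferases of the mu class, had small and even differences. Gstm1 had 11.96 and 11.87 in WT and 12.16 and 12.34 in Ncstn KO, a change of 0.33 (SE 0.098, 95% interval 0.094 to 0.57, limma adjusted p = 0.56). Its other 3 probe sets gave 0.37, 0.39 and 0.29, the last one dim and with overlapping groups. Gstm5 had 11.14 and 11.29 in WT and 11.48 and 11.41 in Ncstn KO, a change of 0.23 (SE 0.11, 95% interval -0.035 to 0.50, limma adjusted p = 0.797). On the main scale both genes had separate groups. The female and male pairs gave similar differences, 0.29 and 0.38 for Gstm1 and 0.19 and 0.28 for Gstm5. Scaling to the hybridization controls, which changes all genes alike, gave 0.14 and 0.038, and the groups of both genes then overlapped. Genes of the mu class resemble each other, and 2 of the 4 Gstm1 probe sets, the main one included, carry the suffix by which Affymetrix marks probes that may bind other transcripts, so their signals may be shared. Over the 7 mu class genes measured, 5 lay above WT, against 55.8% of all genes, with a median of 0.11. Under the scaling to the controls 3 lay above, against 21.4% of all genes.

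Outside the members, Gsta4, a transferase for the lipid peroxidation product hydroxynonenal, had 9.79 and 9.90 in WT and 10.65 and 10.47 in Ncstn KO. Its groups were separate and the change was 0.71 (SE 0.14, limma adjusted p = 0.34). Alox5ap, the activating protein of leukotriene synthesis and a relative of the Mgst proteins, had 0.33 (SE 0.086, limma adjusted p = 0.479), also with separate groups.

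**Figure D2:**
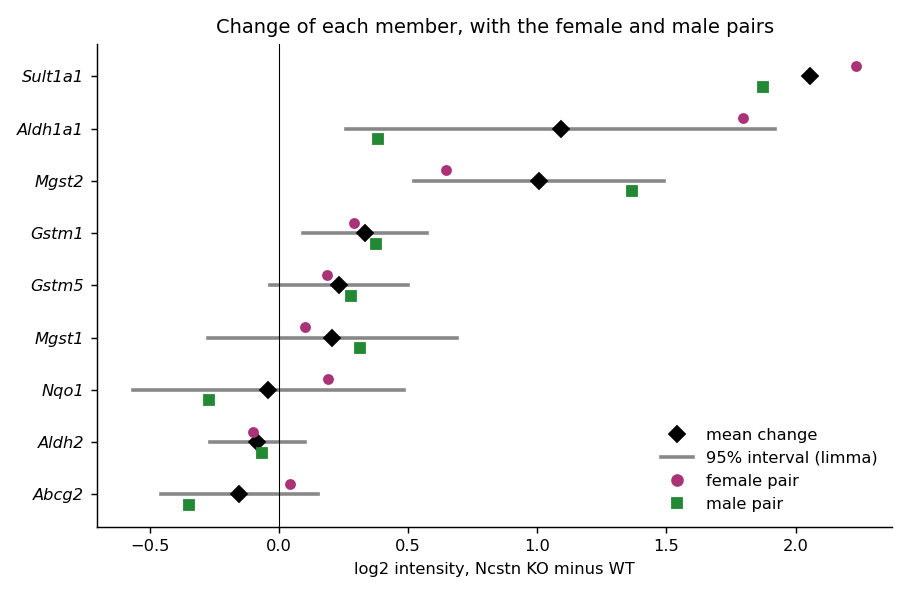
Difference in log2 intensity between Ncstn KO and WT on the main scale (x axis) for the 9 members (y axis). Diamonds are the difference of group means (n = 2 per group), grey bars its 95% interval from limma, not drawn for Sult1a1, which was chosen for this value, circles the female pair and squares the male pair; Nqo1 and Abcg2 have their pairs on opposite sides of 0.

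On the main scale, Nqo1 and Abcg2 showed no shared direction in the 4 mice. Nqo1, a quinone reductase and classical Nrf2 target, had 8.65 and 8.52 in WT and 8.71 and 8.38 in Ncstn KO. The Ncstn KO arrays lay on either side of WT, with a change of -0.040 (SE 0.21, 95% interval -0.56 to 0.48, limma adjusted p = 0.9996). Abcg2, the efflux pump, had 11.71 and 11.59 in WT and 11.63 and 11.37 in Ncstn KO, overlapping groups with a change of -0.15 (SE 0.12, 95% interval -0.46 to 0.15, limma adjusted p = 0.943), and of -0.28 without Ncstn KO replicate 1 and -0.020 without Ncstn KO replicate 2. The intervals of both leave out a 2-fold difference, and differences inside them were not detectable with 2 mice per group. Scaled to the hybridization controls, the changes were -0.24 for Nqo1 and -0.35 for Abcg2, against a median of -0.17 over all genes. Both Ncstn KO arrays then lay below both WT arrays for each gene, as for 44.6% of all genes.

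The pathways around them held no gene that passed over all genes. In this paragraph and the next, counts above WT stand against 55.8% of all genes on the main scale. With the hybridization controls as the scale they stand against 21.4%. Of 27 measured Nrf2 factors and targets, 18 lay above WT with a median of 0.041, and 7 with the hybridization controls as the scale. Both Ncstn KO arrays were above both WT arrays for 7 and below for 2, or 25.9% and 7.41%, near the shares of all genes, 21.3% and 12.8%. Ephx1, an epoxide hydrolase, had 6.61 and 6.58 in WT and 7.24 and 7.87 in Ncstn KO, a change of 0.96 (SE 0.29, limma adjusted p = 0.59), or 0.64 without Ncstn KO replicate 2. Sqstm1, an autophagy adaptor that binds Keap1, had 0.43 (SE 0.13, limma adjusted p = 0.595). Of 23 measured genes for glutathione supply and peroxide removal, 12 lay above WT with a median of 0.021, and 2 with the hybridization controls as the scale. Glrx, which removes glutathione from proteins, had 0.40 (SE 0.12), Sod2, the mitochondrial superoxide dismutase, 0.14 (SE 0.11, and -0.054 with the hybridization controls as the scale), and the dim Gpx8 -0.79 (SE 0.32).

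Of 10 measured Ahr factors and targets, 3 lay above WT with a median of -0.080, and 1 with the hybridization controls as the scale. Ahr itself had 8.10 and 8.28 in WT and 8.81 and 8.44 in Ncstn KO, a change of 0.44 (SE 0.23, limma adjusted p = 0.829), and Nqo2, a quinone reductase, had -0.36 (SE 0.22). Arnt, the partner of Ahr, had 0.095 (SE 0.090), and -0.10 with the hybridization controls as the scale and -0.048 as the mean of its probe sets. The classical Ahr targets Cyp1a1 and Cyp1b1 had means below the median of all genes and changes of -0.083 (SE 0.16) and -0.079 (SE 0.58). That of Cyp1b1 averages opposite values, -1.22 between the females and 1.07 between the males. Of 10 measured multidrug transporters, 5 lay above and 5 below WT, with a median of -0.037, and 2 lay above with the hybridization controls as the scale, with a median of -0.23. Abcc1 had 0.23 (SE 0.13), Abcb1a -0.62 (SE 0.43) and Abcc5 -0.55 (SE 0.34), the last being 0.094 as the mean of its 10 probe sets. These values varied with single arrays. Without Ncstn KO replicate 1 the changes were 0.37, -1.20 and -0.19 for Abcc1, Abcb1a and Abcc5, and without Ncstn KO replicate 2 they were 0.093, -0.044 and -0.90.

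**Figure D3:**
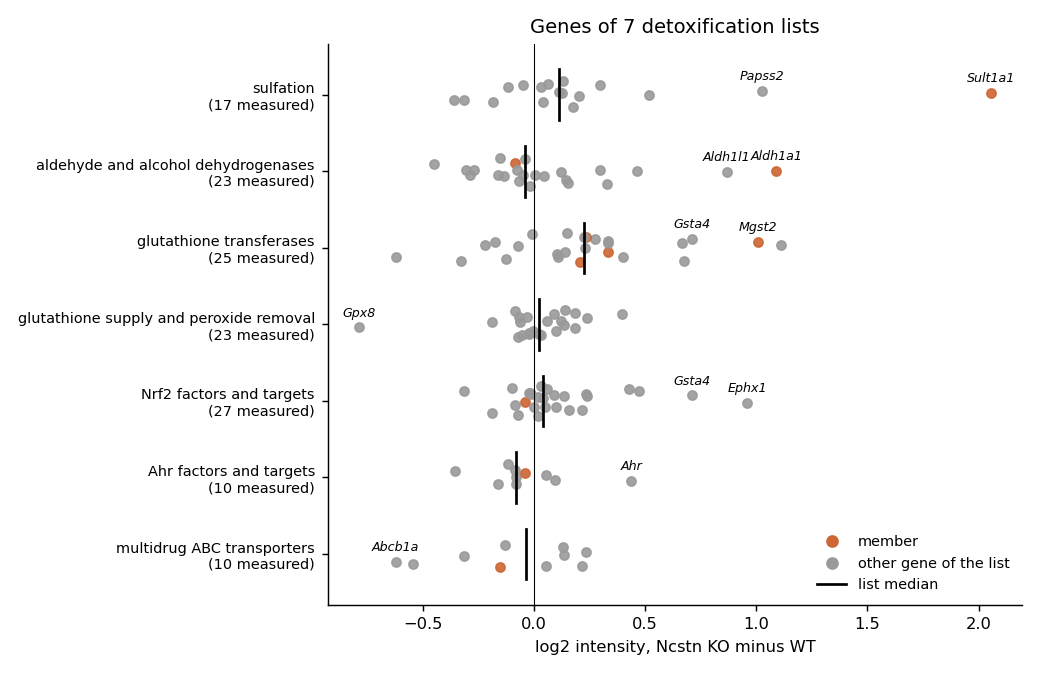
Difference in log2 intensity between Ncstn KO and WT (x axis) for each measured gene of 7 detoxification lists (y axis, with the number measured); points are spread vertically for legibility. Orange points are members, grey points other genes and black bars list medians, which run from -0.080 for Ahr factors and targets to 0.23 for the glutathione transferase list; a gene can stand in more than 1 list.

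Sex was compared separately, since it was balanced over genotype and played no part in choosing the genes. None of the 9 members passed in the limma fit of females against males with genotype as a term, which called 4 of 18193 genes (0.022%), Eif2s3y, Kdm5d, Uty and a probe set named for an immunoglobulin kappa variable gene, each higher in males. At an unadjusted p under 0.05 that fit held 1561 genes and 1 member, Mgst1. Mgst1 was lower in both females, at 11.01 and 11.11, than in both males, at 11.31 and 11.62, a difference of -0.41 (SE 0.10, 95% interval -0.67 to -0.14, limma adjusted p = 0.574). Sult1a1 had a female minus male difference of 0.43 (SE 0.22, 95% interval -0.14 to 1.01, limma adjusted p = 0.577) with overlapping sexes. The other 7 members had differences between -0.14 and 0.11. Both female arrays were above both male arrays for 1 member, Aldh2, against 29.0% of all genes, and below for 1, Mgst1, against 11.5%.

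The genes whose pattern over the 4 arrays was most like that of Sult1a1 were Fcer1a, F13a1, Selp, Mt1 and Ccr2. Likeness was the Euclidean distance between log2 values after removing each gene's mean, among 9096 genes brighter than the median gene. Brightness was the mean over the 4 arrays, Ncstn KO included, so a gene could enter through its Ncstn KO values. The distance was 0.26 for Fcer1a, a chain of the IgE receptor of basophils and mast cells, 0.55 for F13a1, a coagulation factor subunit of monocytes and platelets, and 0.57 for Selp, P-selectin of platelets and endothelium. It was 0.62 for Mt1, a metallothionein that binds metals, and 0.65 for Ccr2, a monocyte chemokine receptor, against a median of 2.11 over the 9096 genes. Fcer1a had 7.15 and 7.47 in WT and 9.89 and 8.93 in Ncstn KO, the same order of arrays as Sult1a1. Its WT values lay below the median gene, 8.04, so it entered only through Ncstn KO. Among the members, Aldh1a1 ranked 35 by this distance (1.15) and Mgst2 ranked 66 (1.29), and the others ranked 772 or farther. A close distance to Sult1a1 requires a large difference between the genotypes, so the list is a description.

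**Figure D4:**
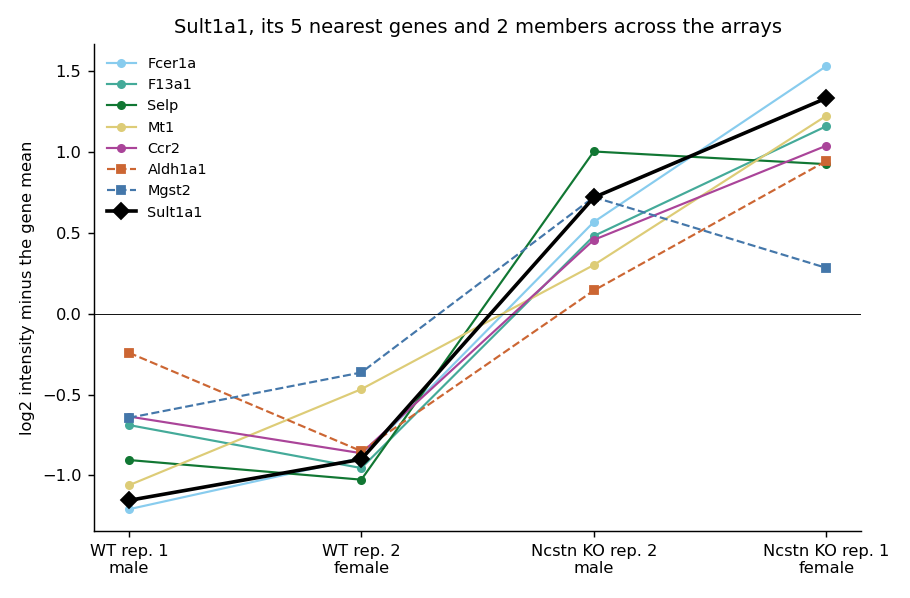
Log2 intensity minus the gene's mean over the arrays (y axis) on the 4 arrays (x axis) for Sult1a1 (black), its 5 nearest genes (solid lines) and the members Aldh1a1 and Mgst2 (dashed). Lines only join the values of a gene and imply no order of mice; Sult1a1 and Fcer1a run closest, with WT replicate 1 lowest and Ncstn KO replicate 1 highest in both.

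Some markers of other blood cells were higher in Ncstn KO together with Sult1a1, and their part in its difference was not tested. In each marker list 0 genes passed over all genes, and the counts of separate arrays stand against 21.3% of all genes above and 12.8% below. Counts above WT on the main scale stand against 55.8% of all genes. All 8 measured basophil and mast cell markers had both Ncstn KO arrays above both WT arrays. Their summed linear intensity was 7679 to 8140 in WT and 11584 to 12659 in Ncstn KO. Gata2, the brightest of them, made up most of each sum and had the smallest change, 0.31. Its log2 values were 12.53 and 12.42 in WT and 12.78 in both Ncstn KO arrays. Ms4a2, Cma1 and Tpsb2 had means below the median of all genes. All 11 megakaryocyte-erythroid progenitor markers lay above WT, 8 with separate arrays, at sums of 3989 to 4750 and 7855 to 9368. All 8 granulocyte-macrophage progenitor markers lay above WT, 7 with separate arrays, at sums of 32640 to 34092 and 47264 to 48779. All 11 measured neutrophil and monocyte markers lay above WT, 6 with separate arrays, but their sums overlapped, at 40400 to 50048 and 47298 to 60323. Stem and progenitor markers had overlapping sums, 37211 to 40815 and 38132 to 40738, with 5 of 11 above WT. Of these 11, 1 had separate arrays above WT, Slamf1 at 0.83, and 2 below, Cd34 at -0.033 and Cd48 at -0.098. Slamf1 differed by 1.43 between the females and 0.23 between the males. With the hybridization controls as the scale, 21.4% of all genes lay above WT. On that scale 8 of 8 basophil and mast cell, 10 of 11 megakaryocyte-erythroid progenitor and 7 of 8 granulocyte-macrophage progenitor markers lay above. So did 7 of 11 neutrophil and monocyte and 1 of 11 stem and progenitor markers. The other lists went both ways. Of 7 mature erythroid markers, 1 had separate arrays above WT, Car1 at 0.86. Separate arrays lay below for 3, among them Alas2, the erythroid enzyme of heme synthesis, at -1.30. Of 6 B cell markers, 1 was apart above, the dim Pax5 at 0.39, and 1 below, Ms4a1, the gene of CD20, at -2.12. Of 7 T and NK cell markers, 0 were apart above and 3 below, among them the granzyme gene Gzma at -2.13. Gzma differed by -3.46 between the females and -0.80 between the males. Of 8 stromal and endothelial markers, 2 were apart above, Vcam1 at 0.62 and Pecam1 at 0.48. The 2 below were the chemokine gene Cxcl12 and Emcn. Cxcl12 was at -2.17, or -3.86 between the females and -0.48 between the males. Emcn was at -1.40, or -1.57 and -1.23. The endothelial genes Cdh5 and Kdr had 0.061 and 0.020, with overlapping groups and means below the median of all genes. The 4 measured hepatocyte markers, included because Sult1a1 is a liver enzyme, had means below the median of all genes, with sums of 131 to 150 in WT and 125 to 129 in Ncstn KO.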

How the data were processed

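Affymetrix arrays were run on 4 samples, 2 WT and 2 Ncstn KO, from 5 ng of amplified RNA each, per the labels' protocols. The authors deposited linear intensities of probe sets, made with RMA per the submitters' processing notes. Its software and background model were not given in the sources used here. That the scale is linear was read from the range of the values, and log2 was taken before testing. Amplification from so little RNA can add noise for rare transcripts, and without values of single probes signal over background was not assessed.

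Of 45101 probe sets, 64 were controls, 34945 named 1 gene, 932 several and 9160 were unnamed here (platform annotation of GEO). Of those naming 1 gene, 34741 matched RefSeq by Entrez identifier, with 0 symbols changed. Each of 18193 genes was represented by its probe set of highest mean. Differences were tested across all genes in R 4.3.3 with limma 3.58.1 (a moderated fit by eBayes with a trend in the variance, two-sided tests, Benjamini-Hochberg at 0.05), with genotype as the only term, or with sex beside genotype for the comparison of females with males. The scripts were tested on simulated data. Sexes differ within groups, so replicates are separate mice, and p-values rest on 2 per group.

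The members and lists were chosen with earlier results of these data known. Named genes were the 9 members, up to 3 genes per list with the smallest unadjusted p, the 5 genes nearest to Sult1a1 and Ncstn. Papss1, Tpst2, the dim sulfotransferases, Cyp1a1, Cyp1b1, Kit, Cd34, Flt3, Slamf1 and Cd48 were named after their values were seen. So were the single markers of other cells and the genes of the closing paragraph outside that rule. Some genes of the lists are not reported here. Promoters came from RefSeq, build GRCm38.p6, and Aldh2 is named only. Alternatives were other scalings, a pseudocount, a filter on dim genes, the mean of probe sets, no variance trend, each array left out, a replicate block and sex as a term. Figures were drawn with matplotlib 3.10.9.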

Additional observations from a re-analysis of the deposited data

Results flagged for a closer look

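On the main scale, Nqo1 and Abcg2 had genotype differences of opposite sign in the sexes. For Nqo1 the Ncstn KO minus WT difference was 0.19 in the female pair and -0.27 in the male pair (log2). For Abcg2 it was 0.044 and -0.35. Each rests on 1 mouse per genotype and sex, so the difference between the sexes was not tested. Scaled to the hybridization controls, both Ncstn KO arrays lay below both WT arrays for each gene, so neither had opposite signs there.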

How the results depend on the processing

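With 2 arrays per group, few settings could change a call on the members. The genotype fit called 3 genes after a repeated quantile normalization, 62 after centring each array on its median, 2 among genes above the median level, and 0 to 27 with 1 array left out (23 without Ncstn KO replicate 1, 27 without Ncstn KO replicate 2). Samples of the same number did not deviate together (correlation of deviations from the group means -0.24). The replicate block gave 0 calls, and sex as a term, which is also the crossed pairing of the numbers, gave 0. None of the 8 other members was among any of these calls, and Sult1a1, chosen for its genotype difference, carries no test. The sex fit called 58 genes after median centring, 2 among genes above the median level and 0 without the variance trend. It has no test with an array left out. Members with both Ncstn KO arrays above both WT arrays numbered 3 with the hybridization controls as the scale and 5 to 6 with 1 array left out (32.0% to 48.9% of all genes). Those below numbered 1 after quantile normalization, 3 with the hybridization controls as the scale and 0 to 3 with 1 array left out (22.8% to 40.0% of all genes). Leaving out an array leaves 1 genotype with a single sex. Signs turned for Mgst1 (-0.049 without Ncstn KO replicate 2, up to 0.46 with another array left out) and Nqo1 (0.029 without WT replicate 1, 0.12 without Ncstn KO replicate 2, down to -0.20 with another left out) between genotypes. In the sex comparison they turned for Aldh2 (-0.034 as the mean of probe sets) and Mgst2 (0.011 after median centring), and with 1 array left out for Mgst2 (-0.44 to 0.28), Aldh1a1 (-0.61 to 0.80), Nqo1 (-0.14 to 0.33) and Abcg2 (-0.13 to 0.26). Outside the members they turned for Abcc5 (0.094) and Arnt (-0.048) as the mean of probe sets, Arnt (-0.10) and Sod2 (-0.054) with the hybridization controls as the scale, and Kit (0.14 without WT replicate 1, down to -0.23 with another array left out). The cause was not tested. Counts of members with separate groups and the settings of the lists and nearest genes were added after the data were seen. The 5 nearest genes were the same under the other scalings and the pseudocount, and 4 of 5 remained with the mean of probe sets.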

Other observations

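Mgst1 and Mgst2 belong to a family of small membrane proteins, named MAPEG, that includes the enzymes of leukotriene and prostaglandin synthesis. All 6 measured members of the family lay above WT, against 55.8% of all genes, 5 with both Ncstn KO arrays above both WT arrays, against 21.3%, and the median change was 0.50. With the hybridization controls as the scale 5 of 6 lay above, against 21.4% of all genes, Mgst3 being the exception, with a median of 0.30, and Mgst1 lay below WT without Ncstn KO replicate 2. Ltc4s, the main leukotriene C4 synthase, had 7.70 and 7.71 in WT and 8.41 and 8.34 in Ncstn KO, a change of 0.67 (SE 0.21, limma adjusted p = 0.595). Ptges, a prostaglandin E synthase, had 6.79 and 5.59 in WT and 6.82 and 7.78 in Ncstn KO, a change of 1.11 (SE 0.50) with barely separate arrays. Mgst3 had 0.14 (SE 0.16). The family was singled out after these values were seen, so it carries no test.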
